A study of Homo sapiens with 6 samples.

Results

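The antioxidant enzymes examined here were 10 of the 31142 genes in the table, SOD1, SOD2, CAT, GPX1, GPX4, PRDX1, PRDX2, TXNRD1, HMOX1 and NQO1. They were chosen by gene symbol, and SOD2, the symbol that was listed under 2 identifiers, was read from the identifier with the higher mean FPKM (fragments scaled by the length of the transcript and the depth of the library). The 6 libraries were made from SKM-1 cells according to the labels, 3 with the S34F mutant and 3 with the wild-type (WT) form of U2AF1. SKM-1 is a line of human myeloid leukemia cells that arose from a myelodysplastic syndrome, and U2AF1 is the small subunit of the splicing factor that recognizes the 3′ splice site. According to the study, both forms were introduced on a lentiviral vector with a ubiquitin promoter and a carboxy-terminal FLAG tag. The vector also held GFP and puromycin resistance genes, and the stably transfected cells still had their own U2AF1. RNA was taken at 96 h. The titles of the WT libraries also bear the prefix NC, which the study uses for negative controls. Its methods describe negative controls as untransfected cells, and speak of a vehicle control for the RNA sequencing. The groups are called S34F and WT as labelled. If the WT libraries came from cells without the vector, effects of the vector and of the mutant cannot be told apart. The study describes the RNA samples as independent and as forming pairs, but neither it nor the labels say whether the libraries of a group came from separate cultures, so p-values measure the spread between these libraries, which may be technical.

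Cells remove reactive oxygen in steps. Superoxide dismutases turn superoxide into hydrogen peroxide, which catalase, the glutathione peroxidases and the peroxiredoxins then reduce. The peroxiredoxins are recharged by thioredoxin, which thioredoxin reductase keeps reduced at the expense of NADPH. The transcription factor NRF2 acts through a DNA motif called the antioxidant response element and is known to induce thioredoxin reductase, heme oxygenase 1 and NQO1. Red cell precursors are rich in several of these enzymes, among them peroxiredoxin 2 and catalase.

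The libraries held approximately 20.5 to 26.1 M fragments each, as estimated from genes with a single exon. U2AF1 itself was measured at 9.24, 9.48 and 9.18 FPKM in S34F replicates 1 to 3 and at 8.67, 8.70 and 7.65 FPKM in WT replicates 1 to 3 (log2 difference 0.14, SE 0.10), a value that does not separate the introduced from the cells' own transcript and so does not check the labels. SKM-1 is usually described as monocytic, but 11 of 12 erythroid marker genes averaged 1 FPKM or more and the median of their means was 86.4 FPKM, against 4 of 12 monocytic marker genes and a median of 0.126 FPKM. Among the erythroid markers the globin genes HBE1, HBG1 and HBZ had the highest means, 5461, 1778 and 1143 FPKM. EPB42 had the lowest, 0.633 FPKM. Of the monocytic markers, MPO, S100A8 and FCN1 were at or under the level of 3 fragments in all 6 libraries, while LYZ was at 8.52 to 23.2 FPKM and ITGAM and CD33 averaged 2.42 and 2.44 FPKM. The study introduced the same forms of U2AF1 into the chronic myelogenous leukemia line K562 as well, while the labels name SKM-1 for all 6 libraries. The identity of the cells was not settled from these data. None of the 11 erythroid markers tested had an unadjusted p under 0.05. Of the 4 monocytic markers tested, ITGAM (log2 difference -0.52, limma unadjusted p = 0.0148) and CD33 (-0.33, limma unadjusted p = 0.0469) were lower in S34F, with an adjusted p of 1. Over all genes tested, 1.57% were called lower at an unadjusted p under 0.05. In both markers every S34F library was below every WT library, as in 3.73% of all genes tested. The lymphoid marker tested, CD3D, had the same order of groups (log2 difference -0.41, limma unadjusted p = 0.0797). In the megakaryocytic marker tested, ITGA2B, the groups overlapped. The erythroid markers summed to 8816 to 9704 FPKM in S34F libraries and 8707 to 8930 FPKM in WT libraries, and the monocytic markers to 13.8 to 30.9 and 25.2 to 26.8 FPKM. The part of these markers in the differences of the antioxidant enzymes was not tested. S34F replicate 3 and WT replicate 3 stood apart from the other libraries, at 35.1 and 12.9 on a first principal component that held 47.9% of the variance, against -16.3 to -7.71 for the other 4. Results that rest on them are given with and without them.

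The abundance of the 10 transcripts spanned several orders of magnitude, and the order by group mean was the same in S34F and WT except that SOD1 and PRDX2, and TXNRD1 and NQO1, changed places. PRDX1 was the most abundant, with a mean of 481 FPKM over the 6 libraries (rank 90 of the 31142 genes), and its lowest library was above the highest library of any other member. SOD1 (mean 146 FPKM, rank 283) and PRDX2 (144 FPKM, rank 288) came next, and their ranges over the libraries overlapped. GPX4 followed at 77.7 FPKM (rank 543), below every value of PRDX2 and SOD1. CAT (23.5 FPKM, rank 1742), NQO1 (19.9 FPKM, rank 2033) and TXNRD1 (17.7 FPKM, rank 2272) overlapped each other, and SOD2 lay far below them at 2.39 FPKM (rank 8168). GPX1 and HMOX1 were close to the detection limit, with means of 0.287 and 0.0268 FPKM. The 10 genes together held between 0.237% and 0.328% of the summed FPKM of a library, and the highest share was in S34F replicate 3.

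**Figure D1:**
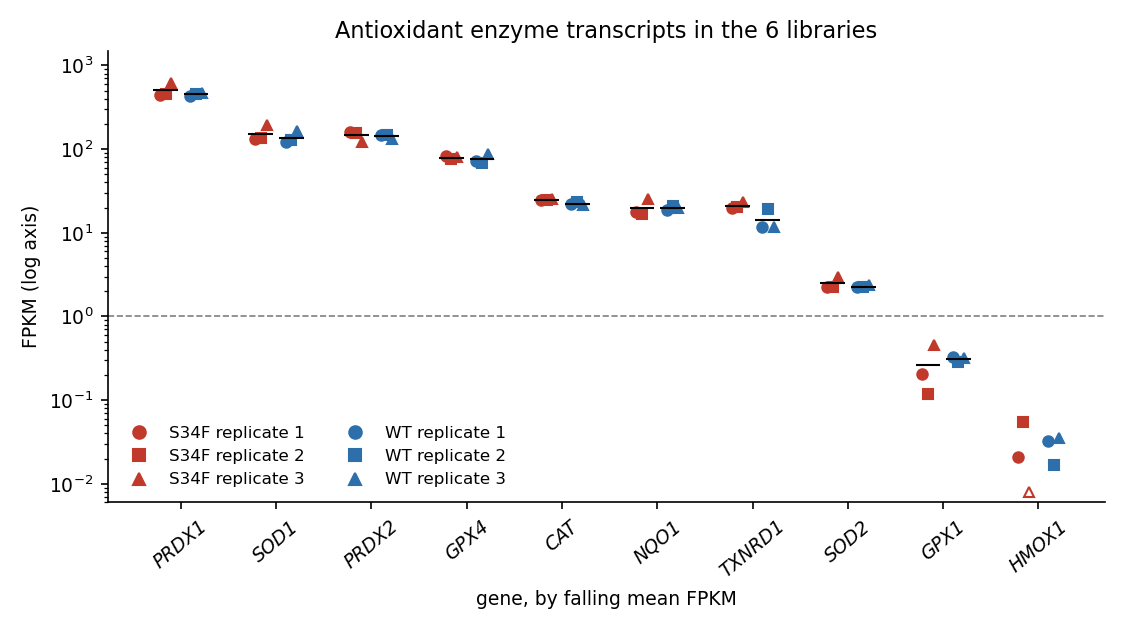
FPKM of the 10 antioxidant enzyme genes on a log axis, with 1 point per library, S34F in red and WT in blue, and a black bar at the group mean. The open triangle at the lower edge is S34F replicate 3, where HMOX1 was listed at 0, and the dashed line marks the mean of 1 FPKM needed for the test. The groups lie side by side for most genes, and TXNRD1 is the gene where WT replicates 1 and 3 drop to 11.6 FPKM.

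The comparison of S34F with WT asked which of these transcripts differ with the mutant. Of the 10 genes, 8 reached the mean of 1 FPKM set for the test and were compared with limma on log2(FPKM + 1) among 10942 genes, and GPX1 and HMOX1 were not. TXNRD1 was the 1 gene of the 8 with an unadjusted p under 0.05 (2.39% of all genes tested), and it was higher in S34F (0.823% of all genes tested were called higher and 1.57% lower). The study's rule for a differentially expressed gene, a fold change above 1.5 with p under 0.05, was applied here to the limma fit on log2(FPKM + 1). It was passed by 0 of the 8 (0.585% of all genes tested), although TXNRD1 lay just under the fold limit. The study's own fold changes and p-values were not used, so this is not its call for these genes. With Benjamini-Hochberg adjustment in limma, 0 of the 8 genes and 0% of the 10942 had an adjusted p under 0.05, while 262 genes had an unadjusted p under 0.05. In TXNRD1 and CAT, every S34F library was above every WT library (3.66% of all genes tested), and in 0 of the 8 was every S34F library below (3.73% of all genes tested). The log2 difference was above 0 in 7 of the 8 genes and below 0 in NQO1, and its median was 0.11, against 0.01 over all genes tested, of which 54.6% were above 0. Without S34F replicate 3, 4 of the 8 were above 0 and 4 below, and the median fell to 0.022. Fewer cells of a type and less RNA per cell cannot be told apart in such bulk RNA.

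**Figure D2:**
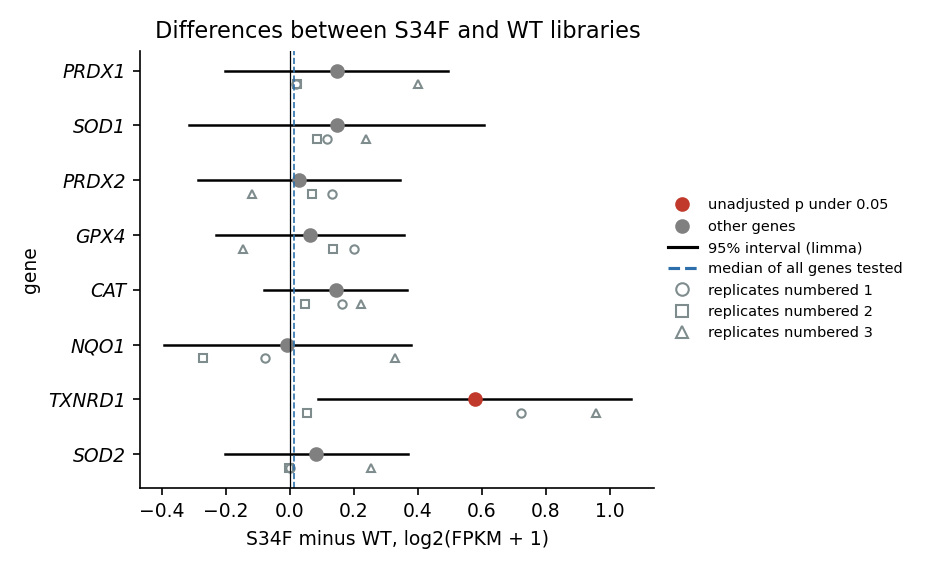
Difference between S34F and WT on the log2(FPKM + 1) scale for the 8 genes tested, with filled points for the estimate, lines for the limma 95% interval, and open symbols for the difference within each replicate number. TXNRD1, in red, has the 1 interval that excludes 0, and for PRDX1, NQO1 and SOD2 the libraries numbered 3 give a difference well above the other pairs.

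TXNRD1, the cytosolic thioredoxin reductase, is a selenoprotein that reduces thioredoxin with electrons from NADPH. It lies on the plus strand of chromosome 12 at 104215779 to 104350305 (ENSG00000198431, GRCh38). It was measured at 19.8, 20.1 and 23.5 FPKM in S34F replicates 1, 2 and 3 and at 11.6, 19.4 and 11.6 FPKM in WT replicates 1, 2 and 3. The groups did not overlap, but WT replicate 2 lay just under the lowest S34F library while the other WT libraries lay far below. The means were 21.1 ± 2.03 FPKM in S34F and 14.2 ± 4.47 FPKM in WT (SD, n = 3 each), a ratio of 1.49. On the log2(FPKM + 1) scale the difference was 0.58 with an SE of 0.21 and a 95% interval from 0.09 to 1.07 (fold 1.06 to 2.09), and the limma p was 0.0267 unadjusted and 1 after Benjamini-Hochberg adjustment. Its p ranked 135 of the 10942 genes. The exact two-sided permutation test of the means gave p = 0.1, the smallest value that 3 libraries against 3 allow.

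Within replicate numbers the TXNRD1 difference was 0.72, 0.05 and 0.96 on the log2 scale for the libraries numbered 1, 2 and 3, so that the second pair hardly differed. The call was lost when S34F replicate 3 was left out (log2 difference 0.50, limma unadjusted p = 0.0763). It was lost likewise without WT replicate 1 (0.46, limma unadjusted p = 0.0902) and without WT replicate 3 (0.46, limma unadjusted p = 0.0933). Without WT replicate 2 the log2 difference rose to 0.81 (limma unadjusted p = 0.00117). With both libraries numbered 3 left out it was 0.39 (limma unadjusted p = 0.197). With a pseudocount of 0.5 or 0.1 in place of 1 the log2 difference was 0.60 or 0.61, which together with an unadjusted p under 0.05 passes the rule for a differentially expressed gene, as do the 0.62, 0.61 and 0.81 without S34F replicate 1, S34F replicate 2 and WT replicate 2. The limma adjusted p lay between 0.496 and 1 over the 17 alternatives. The table lists 19 transcripts for the gene, whose shares are not resolved in a gene level value. RPL18AP3, a processed pseudogene of a ribosomal protein on the same strand inside TXNRD1, was listed at 180 to 231 FPKM, and whether the assignment of its reads touched TXNRD1 was not tested.

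The start regions of TXNRD1 are shown because they were the ones among these genes that held the letters TGACNNNGC, the core of the antioxidant response element, when both strands of RefSeq windows (GRCh38.p14) from 250 bases before to 50 bases after each start were searched. Windows were found for 7 of the 10 genes (13 windows), and not for SOD1, PRDX1 and HMOX1. The core was present in 2 of the 13 windows, both of TXNRD1, and in 13.3% of all 35116 windows. The FOXO motif GTAAACA, searched because FOXO3a is the factor the study follows, was in 0 of the 13 windows and in 3.42% of all windows. Window 1 is chr12:104215529-104215828 and window 2 is chr12:104286782-104287081, both on the plus strand, and capitals mark each match of the core.
TXNRD1 window 1: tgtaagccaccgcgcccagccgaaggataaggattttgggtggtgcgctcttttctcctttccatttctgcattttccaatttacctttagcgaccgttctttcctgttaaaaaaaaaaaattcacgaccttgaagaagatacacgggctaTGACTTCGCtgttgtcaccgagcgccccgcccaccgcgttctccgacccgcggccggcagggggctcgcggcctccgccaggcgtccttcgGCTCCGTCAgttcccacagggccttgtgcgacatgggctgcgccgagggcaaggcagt
TXNRD1 window 2: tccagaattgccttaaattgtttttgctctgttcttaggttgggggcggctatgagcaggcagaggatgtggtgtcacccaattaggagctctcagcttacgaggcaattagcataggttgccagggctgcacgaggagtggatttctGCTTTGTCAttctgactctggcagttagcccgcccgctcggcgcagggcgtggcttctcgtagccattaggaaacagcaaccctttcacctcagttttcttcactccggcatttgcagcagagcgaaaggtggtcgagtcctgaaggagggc
In window 1 the first match begins 99 bases before the start on the strand of the gene and the other begins 8 bases before it on the opposite strand. In window 2 the match begins 102 bases before the start on the opposite strand. A match of letters does not show that a factor was bound, and the gene level values do not tell which start was used. Windows without a match do not show that a gene lacks the element, as bases outside the windows were not searched.

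CAT, catalase, breaks hydrogen peroxide down to water and oxygen in peroxisomes and lies on the plus strand of chromosome 11 (34438925 to 34472062). It was measured at 24.7, 24.4 and 25.1 FPKM in S34F replicates 1 to 3 and at 21.9, 23.6 and 21.4 FPKM in WT replicates 1 to 3. The groups did not overlap. S34F was above WT in 3 of 3 replicate numbers, as it was for SOD1, PRDX1 and TXNRD1. The means were 24.7 ± 0.368 and 22.3 ± 1.14 FPKM (SD, n = 3 each). The log2 difference of 0.14 (SE 0.09, 95% interval -0.08 to 0.37) did not pass the test (limma unadjusted p = 0.170, adjusted p = 1), and the exact permutation test gave its smallest p of 0.1. As for TXNRD1, the lowest WT values were in replicates 1 and 3 and WT replicate 2 was closest to the S34F libraries.

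Among the superoxide dismutases, SOD1, the copper and zinc enzyme of the cytosol (chromosome 21, 31659622 to 31668931, plus strand), was measured at 131, 135 and 195 FPKM in S34F replicates 1 to 3 and at 121, 127 and 165 FPKM in WT replicates 1 to 3. The groups overlapped, and the highest library of each group was replicate 3. The log2 difference was 0.15 (SE 0.19, 95% interval -0.31 to 0.61, limma unadjusted p = 0.472). It was -0.036 without S34F replicate 3 and 0.10 without both libraries numbered 3. SOD2, the manganese enzyme of mitochondria (chromosome 6, 159669057 to 159745186, minus strand), was measured at 2.25, 2.23 and 3.0 FPKM in S34F and at 2.25, 2.23 and 2.36 FPKM in WT replicates 1 to 3. Replicates 1 and 2 of both groups were nearly the same, and the log2 difference of 0.08 (SE 0.12, 95% interval -0.20 to 0.37, limma unadjusted p = 0.510) came with a single high value in S34F replicate 3, and was -0.018 without that library and -0.0016 without both libraries numbered 3. SOD1 exceeded SOD2 by a factor of 53.7 to 70.1 in FPKM across the 6 libraries. The other SOD2 identifier had a mean of 0.0747 FPKM, and WTAP overlaps SOD2 on the opposite strand at 7.24 to 10.4 FPKM.

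GPX4, the glutathione peroxidase that reduces lipid hydroperoxides in membranes (chromosome 19, 1103926 to 1106791, plus strand), was measured at 82.2, 75.4 and 79.9 FPKM in S34F and at 71.4, 68.6 and 88.5 FPKM in WT replicates 1 to 3. The WT libraries lay on both sides of the S34F libraries, and the log2 difference was 0.06 (SE 0.12, 95% interval -0.23 to 0.36, limma unadjusted p = 0.626). Without both libraries numbered 3 it was 0.17. GPX1, the cytosolic glutathione peroxidase (chromosome 3, 49357171 to 49358600, minus strand), was listed at 0.207, 0.12 and 0.461 FPKM in S34F and at 0.325, 0.287 and 0.323 FPKM in WT replicates 1 to 3. These values stood above the level of 3 fragments (0.101 to 0.129 FPKM) in all 6 libraries but rest on few fragments, the groups overlapped, and the gene was below the limit for the test. GENCODE 29 lists this GPX1 entry as a polymorphic pseudogene, and how that class was handled in the assignment of reads is not given in the sources used here.

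PRDX1 and PRDX2 are cytosolic peroxiredoxins, which reduce hydrogen peroxide with a reactive cysteine. PRDX1 (chromosome 1, 45511036 to 45523047, minus strand) was measured at 438, 461 and 626 FPKM in S34F and at 432, 453 and 474 FPKM in WT replicates 1 to 3. S34F replicate 3 was far above the other 5 libraries, which overlapped, and the log2 difference was 0.15 (SE 0.15, 95% interval -0.20 to 0.50, limma unadjusted p = 0.348). It was -0.011 without S34F replicate 3 and 0.022 without both libraries numbered 3. PRDX2 (chromosome 19, 12796820 to 12801859, minus strand) was measured at 161, 155 and 121 FPKM in S34F and at 147, 148 and 132 FPKM in WT replicates 1 to 3. In this gene replicate 3 was the lowest library of each group, and the log2 difference was 0.03 (SE 0.13, 95% interval -0.29 to 0.34, limma unadjusted p = 0.839). It was 0.15 without S34F replicate 3 and 0.10 without both libraries numbered 3. The ratio of PRDX1 to PRDX2 was therefore 2.72, 2.97 and 5.16 in S34F and 2.95, 3.06 and 3.6 in WT replicates 1 to 3, with the highest value of each group in replicate 3.

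NQO1, a quinone reductase that uses NADPH and spares the cell redox cycling of quinones (chromosome 16, 69706996 to 69726951, minus strand), was measured at 17.8, 17.0 and 25.4 FPKM in S34F and at 18.8, 20.7 and 20.0 FPKM in WT replicates 1 to 3. S34F replicates 1 and 2 were below every WT library and S34F replicate 3 was above every WT library, and the log2 difference was -0.0069 (SE 0.16, 95% interval -0.39 to 0.38, limma unadjusted p = 0.968). It was -0.18 without S34F replicate 3 and -0.17 without both libraries numbered 3. HMOX1, heme oxygenase 1, which opens the heme ring and is a strongly inducible stress gene (chromosome 22, 35380361 to 35394214, plus strand), was listed at 0.0212, 0.0555 and 0 FPKM in S34F and at 0.0326, 0.0167 and 0.0352 FPKM in WT replicates 1 to 3. All 6 values were at or under the level of 3 fragments (0.0631 to 0.0804 FPKM), so no difference was detectable at this depth and no fold change was formed. Of the 3 NRF2 targets named above, TXNRD1 thus passed the unadjusted test, NQO1 had no difference larger than its spread, and HMOX1 was not detectable.

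In the libraries numbered 3 some antioxidant enzymes were higher and others lower than in the libraries numbered 1 and 2. On the log2(FPKM + 1) scale, S34F replicate 3 exceeded the mean of S34F replicates 1 and 2 by 0.55 for SOD1, 0.52 for NQO1, 0.48 for PRDX1 and 0.30 for SOD2, and lay at -0.38 for PRDX2. In WT replicate 3 the corresponding values were 0.41 for SOD1, 0.02 for NQO1, 0.10 for PRDX1, 0.05 for SOD2 and -0.16 for PRDX2. The values were 0.02 in S34F and 0.34 in WT for GPX4, and 0.03 and -0.09 for CAT. For TXNRD1 they were 0.22 and -0.35, but WT replicate 3 equalled WT replicate 1 at 11.6 FPKM, and the negative value reflects the higher WT replicate 2 in the mean it was set against. A difference of more than 0.3 in either direction was seen in 5 of the 8 genes in S34F replicate 3, beside 47.0% of all genes tested, and in 3 of the 8 in WT replicate 3, beside 28.2% of all genes tested. Without both libraries numbered 3, the log2 differences ranged from -0.17 for NQO1 to 0.39 for TXNRD1, and 0 of the 8 genes had an unadjusted p under 0.05 with limma, beside 16.9% of all genes tested. The lowest limma unadjusted p among the 8 was then 0.0521, for GPX4 (log2 difference 0.17, SE 0.06).

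**Figure D3:**
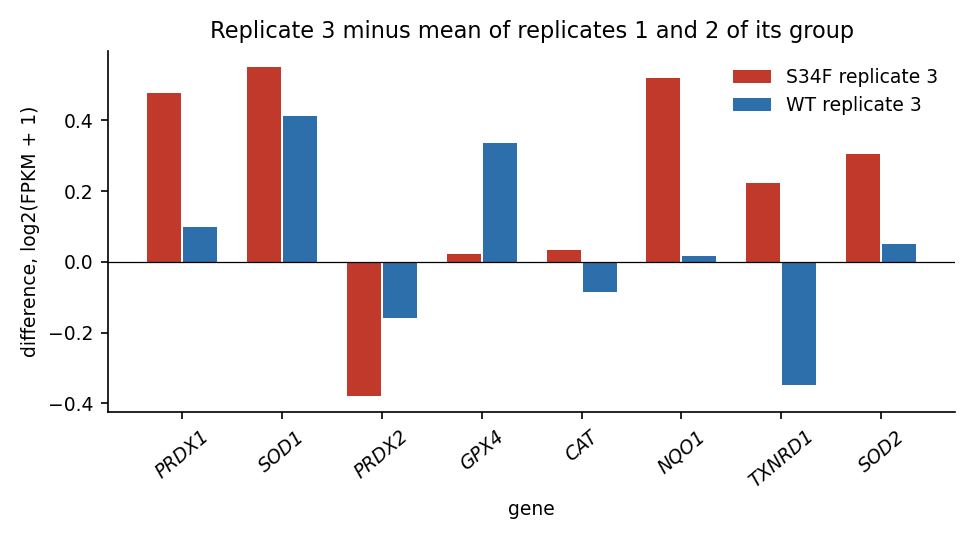
Difference between replicate 3 and the mean of replicates 1 and 2 of the same group on the log2(FPKM + 1) scale for the 8 genes tested, S34F in red and WT in blue. SOD1 is up in both (0.55 and 0.41) and PRDX2 is down in both (-0.38 and -0.16). The negative WT bar of TXNRD1 (-0.35) stems from the high WT replicate 2, as WT replicates 1 and 3 were equal at 11.6 FPKM.

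Genes that work with these enzymes were examined in 8 further lists of 70 genes, of which 69 were in the table and 53 were tested. Of the 53, SRXN1 was higher in S34F at an unadjusted p under 0.05 and 0 were lower (1.89% called, beside 2.39% of all genes tested), and the median log2 difference was 0.01, the same to 2 decimals as over all genes tested. The other peroxiredoxins, thioredoxins and their regulators had 11 tested genes, with 1 called higher, 0 lower and a median log2 difference of 0.01. SRXN1, sulfiredoxin, restores peroxiredoxins whose cysteine has been oxidized too far, and was measured at 25.1, 24.3 and 24.9 FPKM in S34F and at 20.3, 20.7 and 21.5 FPKM in WT replicates 1 to 3. Each group was tight, and every S34F library was above every WT library, as in 3.66% of all genes tested. The log2 difference was 0.24 (SE 0.09, limma unadjusted p = 0.0344, adjusted p = 1), with an exact permutation p of 0.1. The call was lost without S34F replicate 1, S34F replicate 2, WT replicate 1 or WT replicate 2 (limma unadjusted p from 0.0803 to 0.123) and with quantile normalization (limma unadjusted p = 0.0553), while the log2 difference stayed between 0.21 and 0.26 over the 17 alternatives. The most abundant gene of this list, PRDX5, a peroxiredoxin of mitochondria and peroxisomes, was measured at 493 to 689 FPKM in S34F and 497 to 707 FPKM in WT.

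In the remaining lists 0 genes had an unadjusted p under 0.05. Of the other glutathione peroxidases and the genes of glutathione synthesis and reduction, 12 were tested, 7 were above and 5 below 0, and the median log2 difference was 0.03. GSTP1, a glutathione S-transferase and the most abundant of them, was at 485, 473 and 307 FPKM in S34F and at 434, 435 and 376 FPKM in WT replicates 1 to 3. The regulators of NRF2 and BACH1, the latter a repressor of the same response element, numbered 9 tested genes with a median of 0.02, and the most abundant was SQSTM1, an autophagy receptor that also binds KEAP1. SQSTM1 was at 60.6, 59.0 and 186 FPKM in S34F and at 63.5, 63.1 and 123 FPKM in WT replicates 1 to 3, so that replicate 3 was the highest library of each group by a wide margin.

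The NADPH supply list had 7 tested genes with a median log2 difference of -0.01, and its most abundant gene, the pentose phosphate enzyme TALDO1, was at 143 to 156 FPKM in S34F and 147 to 157 FPKM in WT. The partners of heme degradation and the NQO1 paralog had 4 tested genes with a median of -0.02, led in abundance by the biliverdin reductase BLVRB at 196, 191 and 174 FPKM in S34F and 154, 151 and 202 FPKM in WT replicates 1 to 3. The genes for selenocysteine insertion, which GPX1, GPX4 and TXNRD1 need, had 6 tested genes with a median of 0.01, and SEPHS2, which makes selenophosphate, was at 38.3 to 49.9 FPKM in S34F and 39.4 to 40.8 FPKM in WT. The phagocyte NADPH oxidase list held genes of that enzyme complex, which makes superoxide, and the further oxidase genes NOX1, NOX4 and DUOX1. In this list 3 of 9 genes were tested with a median of -0.07, and its most abundant gene CYBA was at 79.8 to 112 FPKM in S34F and 102 to 108 FPKM in WT. CCS, the copper chaperone of SOD1, was the tested gene of the superoxide dismutase partners, with a log2 difference of -0.18 (SE 0.13). Without S34F replicate 3, 5 of the 53 genes had an unadjusted p under 0.05 (9.43%, beside 10.6% of all genes), and without both libraries numbered 3, 10 did (18.9%, beside 16.9% of all genes).

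**Figure D4:**
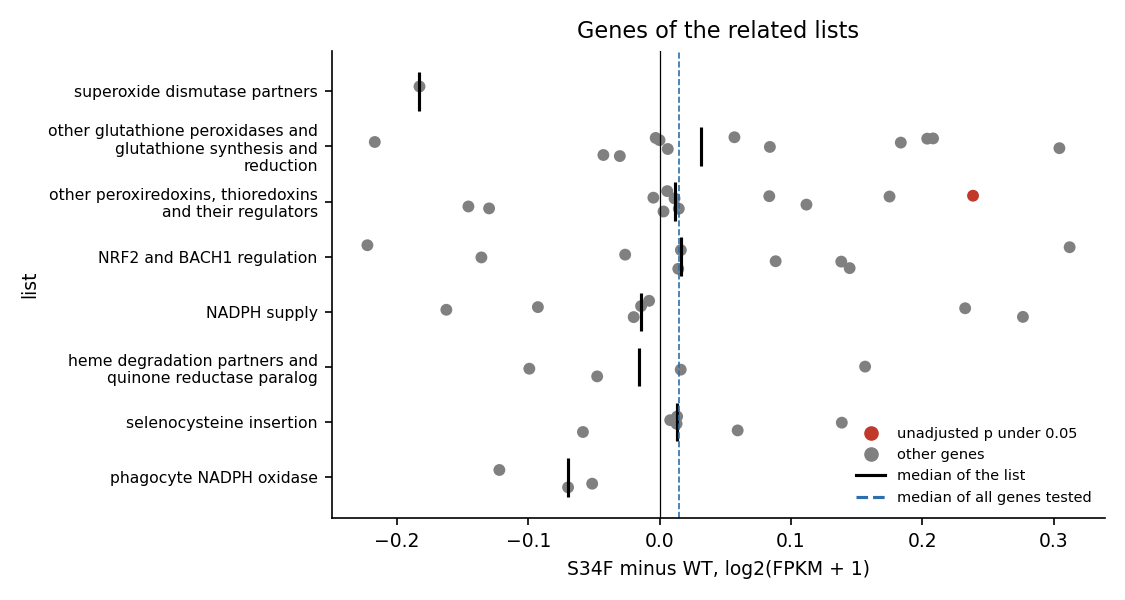
Difference between S34F and WT on the log2(FPKM + 1) scale for each of the 53 tested genes of the 8 related lists, with a black bar at the list median and a dashed line at the median of all genes tested. The medians lie between -0.18 and 0.03, and SRXN1, in red, is the gene with an unadjusted p under 0.05.

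TXNRD1 had the widest range of the 8 tested members over the 6 libraries, 0.96 on the log2(FPKM + 1) scale. The genes whose pattern over the 6 libraries was most like it, among 10941 compared by Pearson correlation, were ITPRIP (r = 0.978), USP32 (r = 0.977) and PDIA6 (r = 0.977), and 44 genes had an r over 0.9. PDIA6, a protein disulfide isomerase of the endoplasmic reticulum, was at 93.2, 91.4 and 94.1 FPKM in S34F and at 82.7, 89.3 and 83.2 FPKM in WT replicates 1 to 3. As in TXNRD1, WT replicates 1 and 3 were low and WT replicate 2 lay close to the S34F libraries. These likenesses are a description over 6 libraries and were not tested.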

How the data were processed

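The processed table held the FPKM of 31142 genes in 6 libraries, 3 of each group, from RNA of cells labelled SKM-1 that was sequenced on an Illumina instrument. The authors deposited these FPKM values, with StringTie and edgeR named in the submitters' processing notes; the aligner and genome build are not given in the sources used here. Although the table is named for raw counts, its column headings read FPKM and 100% of its non-zero values had decimals. Its columns of the authors' own fold changes and p-values were not used. GENCODE 29 (GRCh38) gave coordinates and matched 31002 of the gene identifiers.

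The members and lists were chosen with earlier results of these data known. The named genes were all 10 members, U2AF1, in each related list the most abundant gene and each gene with an unadjusted p under 0.05, and the 3 genes most like the member with the widest range. limma 3.58.1 (R 4.3.3) was fitted to log2(FPKM + 1) for the 10942 genes averaging 1 FPKM or more, with a trend of variance on mean and Benjamini-Hochberg adjustment. On this scale the fold changes of low genes are understated. Single members were also compared by an exact two-sided permutation test of mean FPKM. The fitting script was tested on simulated data. Other steps used matplotlib 3.10.9, scipy 1.17.1, pandas 2.3.3 and numpy 2.4.6 under Python 3.11.15.

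Depth was estimated from the FPKM of 5491 single-exon genes, and a gene at or under 3 fragments was treated as at the detection limit, which covers counting error only. Deviations from the group mean correlated across genes at 0.212, 0.174 and 0.38 for libraries sharing the numbers 1, 2 and 3. As each exceeded 0.1 and the study speaks of pairs, a fit with the replicate block was run as an alternative. The correlations do not show that the numbers pair the libraries, as the unlike numbers 1 and 2 reached 0.134 and 0.197. Deviations within a group of 3 sum to 0, so a deviation shared by the libraries numbered 3 also raises the values among numbers 1 and 2. The other alternatives were median-ratio scaling, quantile normalization, a rescaling that left out genes of the mitochondrial genome and of ribosomal proteins, pseudocounts of 0.1 and 0.5, no filter, a mean of at least 5 FPKM, no variance trend, robust empirical Bayes, each library left out in turn, and both libraries numbered 3 left out.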

Additional observations from a re-analysis of the deposited data

How the results depend on the processing

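Of 135 log2 differences of single members over 17 alternatives, 120 kept their direction and their side of the threshold, 11 changed sign and 4 lost the call. The number of members with an unadjusted p under 0.05 was 1 under all scaling, pseudocount, filter and variance settings, 0 to 1 with each library left out in turn (0 without S34F replicate 3, WT replicate 1 or WT replicate 3) and 0 without both libraries numbered 3. The median log2 difference of the tested members ranged from 0.022 without S34F replicate 3 to 0.15 with single libraries left out, against 0.11 with all. With single libraries left out, the log2 difference ranged from -0.18 to 0.10 for NQO1, -0.048 to 0.15 for PRDX2, -0.036 to 0.29 for SOD1, -0.018 to 0.14 for SOD2, -0.011 to 0.25 for PRDX1 and -0.0074 to 0.17 for GPX4, and without both libraries numbered 3 it was -0.0016 for SOD2. The cause was not tested. With mean FPKM of at least 5, SOD2 was not tested.

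With the replicate block, 1 member had an unadjusted p under 0.05 (TXNRD1, limma unadjusted p = 0.0309), the median was 0.11, and the block changed no call of a member or related gene, although the count over all genes rose from 262 to 443.

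Over all genes, that count was 904 with no filter, 113 at a mean of at least 5 FPKM, 162 without WT replicate 1, 1160 without S34F replicate 3 and 1846 without both libraries numbered 3. The count with a fold change above 1.5 was 64, and 122 with a pseudocount of 0.1, 22 at a mean of at least 5 FPKM, 180 without S34F replicate 3 and 183 without both. Adjusted calls numbered 0, and 1 without S34F replicate 1, 3 without WT replicate 3 and 8 without both libraries numbered 3. Among the related genes the count of 1 became 0 with quantile normalization and 0 to 5 with single libraries left out, and 10 without both libraries numbered 3. HMOX1 was at or under 3 fragments in every library, whereas GPX1 was above that level and was left out by the filter on a mean of 1 FPKM.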

Other observations

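The remaining related genes included some with patterns of their own, named here after their values were seen. GPX3, the secreted glutathione peroxidase, was listed at 0.222, 0.332 and 0.353 FPKM in S34F replicates 1 to 3 and at 2.13, 0.289 and 2.53 FPKM in WT replicates 1 to 3. It was thus high in WT replicates 1 and 3, the libraries where TXNRD1 was low, and WT replicate 2 was again near the S34F libraries. Its mean of 0.976 FPKM was just under the limit for the test, and with values of this size it was not tested. For GPX3 the level of 3 fragments was 0.182 to 0.232 FPKM. S34F replicate 1 was under the level of its library, and the other S34F values and WT replicate 2 rest on few fragments. ME1, the cytosolic malic enzyme that makes NADPH, was at 5.10, 5.17 and 6.96 FPKM in S34F and at 4.46, 4.53 and 4.59 FPKM in WT replicates 1 to 3, with a log2 difference of 0.28 (SE 0.13, limma unadjusted p = 0.0756). Every S34F library was above every WT library, as in 3.66% of all genes tested. TXNIP, the thioredoxin-interacting protein, was at 94.8, 93.1 and 91.3 FPKM in S34F and at 100.1, 99.2 and 110 FPKM in WT replicates 1 to 3, so that every S34F library was below every WT library, as in 3.73% of all genes tested, with a log2 difference of -0.15 that did not pass the test (limma unadjusted p = 0.155). Of the other related genes tested, CUL3 and RBX1, subunits of the ligase that marks NRF2 for degradation, had every S34F library above every WT library, as in 3.66% of all genes tested. Their log2 differences were 0.14 and 0.09 (limma unadjusted p = 0.223 and limma unadjusted p = 0.373). Of the 9 tested genes of their list, 6 were above 0 and 3 below. KEAP1 was among those below (log2 difference -0.22, limma unadjusted p = 0.208), and its groups overlapped. PSTK, of the selenocysteine insertion list, had the same order but averaged 0.955 FPKM and was not tested.

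GCLM, the modifier subunit of the enzyme that starts glutathione synthesis, was at 7.07, 7.44 and 13.5 FPKM in S34F and 6.58, 7.13 and 9.98 FPKM in WT replicates 1 to 3. Replicate 3 was the highest library of each group. S34F was above WT in each replicate number, but the groups overlapped (log2 difference 0.18, limma unadjusted p = 0.503). BACH1, at 1.95, 1.94 and 4.32 FPKM in S34F and 1.81, 1.80 and 2.07 FPKM in WT replicates 1 to 3, was high in S34F replicate 3 alone. The mitochondrial peroxiredoxin PRDX3 went the other way, at 42.6, 43.1 and 31.2 FPKM in S34F and 36.0, 37.7 and 29 FPKM in WT replicates 1 to 3, with the lowest library of each group in replicate 3.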
